A study of Mus musculus with 2 samples.

Results

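The genes of the mitochondrial respiratory chain were compared between 661W cells kept without choline and 661W cells kept with it. 661W is an immortalised mouse line with features of cone photoreceptors. The choline-deficient cells were cultured for 3 days in DMEM/F12 without choline, and the choline-sufficient cells for the same time in DMEM/F12 that the labels describe as holding 8.98 g/L choline, a figure that could not be checked here. Both media contained fetal bovine serum, penicillin and streptomycin, per the labels' protocols. The design text states that RNA was pooled over 4 dishes, without saying whether this was per condition. Each condition was represented by 1 Agilent single-colour array, so no difference below has a replicate check, no p-value is given, and all counts are counts of size. The members were all genes whose name on the arrays begins with Nduf, Uqcr, Cox4 to Cox8 or Atp5, together with Sdha, Sdhb, Sdhc, Sdhd and Cyc1. This gave 95 of 29608 named genes: 36 subunits of complex I, 4 of complex II, 9 of complex III, 18 of complex IV, 17 of complex V, and 11 genes that carry such a name without being counted in a complex here.

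The respiratory chain lies in the inner mitochondrial membrane. Complexes I and II take electrons from NADH and succinate and pass them to ubiquinone, complex III passes them to cytochrome c, and complex IV passes them to oxygen. Complexes I, III and IV pump protons across the membrane, and complex V, the ATP synthase, lets them flow back to make ATP. Most subunits are encoded in the nucleus and a few core subunits in mitochondrial DNA. Photoreceptors are known for a high demand for ATP and a dense supply of mitochondria. Choline is a precursor of phosphatidylcholine, a main lipid of mitochondrial membranes.

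Each array had 43020 non-control spots, none saturated. The scanner software called 30435 of them (70.7%) well above background for choline-deficient cells and 29467 (68.5%) for choline-sufficient cells. Values are given as relative signal, which is the scanner's processed signal divided by the array's 75th percentile, and as the log2 difference of choline-deficient minus choline-sufficient. A relative signal is specific to its probes and is not compared between genes. The scanner's own error gave a typical error of 0.20 for a log2 difference. For bright probes it was nearly the same whatever the gene, so it is not a spread measured for that gene. This error leaves out any spread between cultures. Where 268 probes had at least 8 of 10 replicate spots, the SD between spots had a median of 0.05. Of the cone markers, 6 of 11 were measured, while Opn1sw, Cngb3 and Crx were above background on neither array. Of the rod markers 1 of 5 was measured, of the Müller glia markers 3 of 4, and of the fibroblast markers 4 of 5. The cone genes Gngt2, Pde6h and Thrb, and Sox9, Slc1a3, Col1a1, Col1a2 and Pdgfrb of the glia and fibroblast lists were at least 1.5-fold higher in choline-deficient cells, with Col1a1 13.5-fold higher. These were 3 of 6, 2 of 3 and 3 of 4 measured cone, glia and fibroblast markers, beside 14.8% of all genes. The cone gene Arr3 (-0.41) and the rod gene Gnat1 (-0.44) lay below 0. Pde6c was above background only in choline-sufficient cells, and Cnga3 and Rlbp1 only in choline-deficient cells. Pde6h was the dimmest measured cone marker, with an error of 0.37. Relative signals of the 6 measured cone markers ran from 0.0064 to 0.227 in choline-deficient cells and from 0.00351 to 0.154 in choline-sufficient cells. The part of such cell-state differences in the results below was not tested.

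Of the 95 genes, 92 were measured on both arrays, and most had somewhat less signal in choline-deficient cells. Genes at least 1.5-fold lower numbered 16, beside a background of 14.1% of 19818 measured genes. Genes at least 1.5-fold higher numbered 3, beside a background of 14.8%. The other 73 lay within 1.5-fold. The share lower, 17.4%, was thus near the background, while the share higher, 3.26%, was below it. In direction, 81 of the 92 lay below 0, beside 57.4% of all measured genes and 80.6% of the brightest 10% of genes, to which 62 of the members belonged. This count was 67 after quantile normalization, 63 after cyclic loess and 59 after scaling to spike-in probes. The 57.4% is not the background for these counts, because the all-gene median was then -0.095, -0.01 and 0.17, in that order. Members below the all-gene median of the same setting numbered 58, 62 and 77. Without these changes of scaling, the median log2 difference of the members was -0.34, against -0.10 for all measured genes. At a smaller log2 size of 0.32, 48 members were lower, beside a background of 30.8%, and 4 were higher, beside 23.9%. At 2-fold, 3 members were lower, beside a background of 3.88%, and 2 were higher, beside 7.67%. The plot of log2 differences by complex shows a shallow common shift with a few genes standing far outside it.

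**Figure D1:**
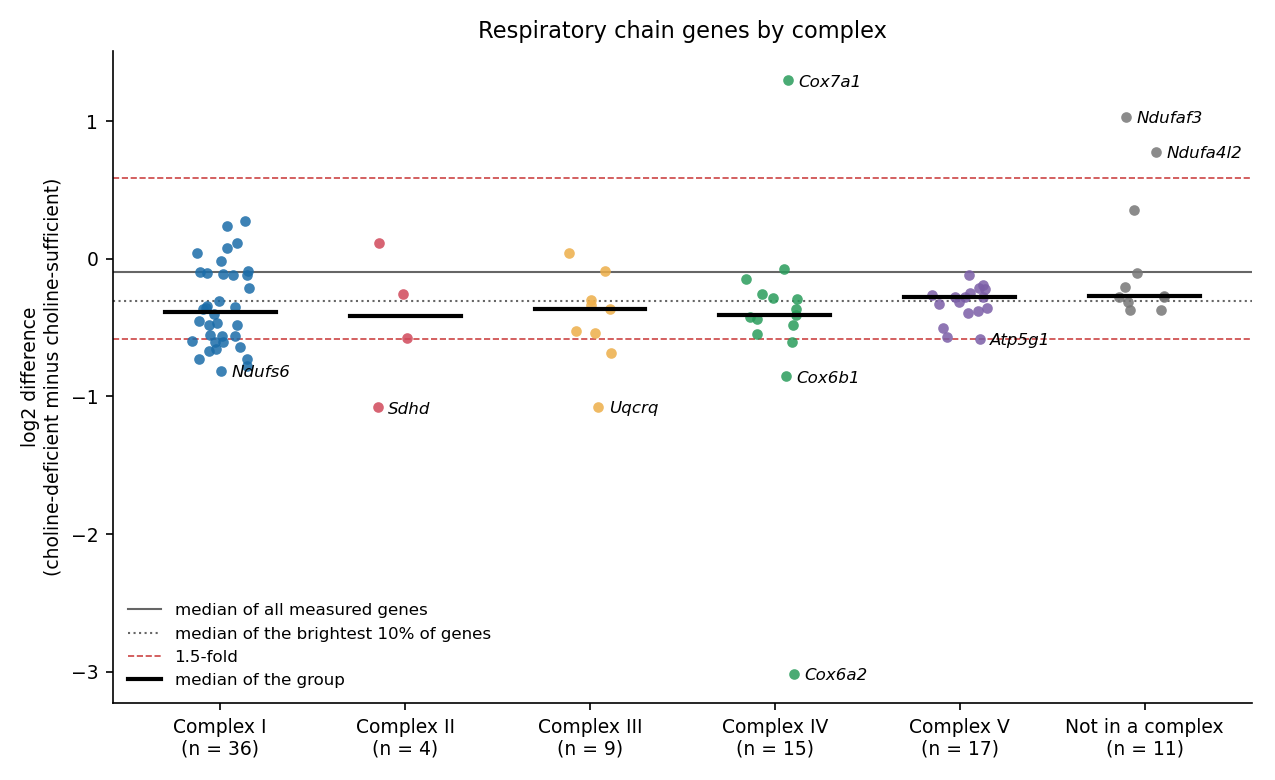
Log2 difference (choline-deficient minus choline-sufficient, vertical axis) of the 92 measured respiratory chain genes, grouped by complex, with 1 point per gene and 1 array per condition. Thick bars are group medians, dashed lines mark 1.5-fold, and the grey lines are the medians of all genes (-0.10) and of the brightest 10% of genes (-0.30). Cox6a2 at -3.01 and Cox7a1 at 1.30 are the outermost points, and the 17 complex V genes sit between -0.58 and -0.12.

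Promoters of nuclear respiratory chain genes are known for binding sites of NRF1, of ETS factors such as GABP, and of YY1. RefSeq promoters on GRCm38.p6, windows of 300 bases around a gene's annotated start, were found for 76 of the 95 members. Both strands were searched for the letters GCGCA and GCGC separated by any 1 base (NRF1), CCGGAAG (ETS) and AAGATGGCG (YY1). The NRF1 letters occurred in 19 members (25.0%), beside 5.19% of 27025 genes with a promoter. The ETS letters occurred in 19 members (25.0%), beside 9.93% of genes. The YY1 letters occurred in 8 members (10.5%), beside 1.64%. At least 1 of these occurred in 39 members (51.3%), beside 15.1% of genes. Among the members with a promoter, it was 8 of the 12 that were 1.5-fold lower and 31 of the 60 within 1.5-fold. The letters ACGTG, the core of the hypoxia response element, occurred in 18 members (23.7%), beside 21.8% of genes. Members' promoters had a median GC content of 58.8%, beside 53.3% for all genes. A match describes the letters in this window and is not a measured binding site.

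The promoters below are shown because their genes mark the range of the results: Sdhd and Ndufs6 were lower in choline-deficient cells, the broadly expressed Cox6a1 differed little, and the muscle-type Cox7a1 was higher. Each runs 5′ to 3′ on the gene's strand, and capitals mark the letters found on either strand.
Sdhd (GRCm38.p6 chr9:50603800-50604099, minus strand, NRF1 then ETS letters): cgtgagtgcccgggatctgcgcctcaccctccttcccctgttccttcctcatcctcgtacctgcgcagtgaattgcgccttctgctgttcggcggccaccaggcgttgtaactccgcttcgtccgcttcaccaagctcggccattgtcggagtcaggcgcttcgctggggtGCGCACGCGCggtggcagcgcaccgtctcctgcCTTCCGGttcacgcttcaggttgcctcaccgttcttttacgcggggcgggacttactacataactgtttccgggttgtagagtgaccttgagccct
Ndufs6 (GRCm38.p6 chr13:73328433-73328732, minus strand, NRF1 then YY1 letters): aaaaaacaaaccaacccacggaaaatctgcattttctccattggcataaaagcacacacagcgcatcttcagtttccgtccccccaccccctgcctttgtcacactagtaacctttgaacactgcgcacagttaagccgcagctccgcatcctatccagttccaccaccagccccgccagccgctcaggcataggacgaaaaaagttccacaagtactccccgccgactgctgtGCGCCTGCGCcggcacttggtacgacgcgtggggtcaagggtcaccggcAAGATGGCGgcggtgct
Cox6a1 (GRCm38.p6 chr5:115348909-115349208, minus strand, 2 NRF1 then 1 ETS letters): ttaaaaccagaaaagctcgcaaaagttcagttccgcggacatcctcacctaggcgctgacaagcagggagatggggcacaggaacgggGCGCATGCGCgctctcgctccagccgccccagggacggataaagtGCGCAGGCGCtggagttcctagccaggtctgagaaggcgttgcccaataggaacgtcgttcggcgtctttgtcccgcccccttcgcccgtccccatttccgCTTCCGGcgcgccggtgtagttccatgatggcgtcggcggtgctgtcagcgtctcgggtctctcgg
Cox7a1 (GRCm38.p6 chr7:30183921-30184220, plus strand, ACGTG letters only): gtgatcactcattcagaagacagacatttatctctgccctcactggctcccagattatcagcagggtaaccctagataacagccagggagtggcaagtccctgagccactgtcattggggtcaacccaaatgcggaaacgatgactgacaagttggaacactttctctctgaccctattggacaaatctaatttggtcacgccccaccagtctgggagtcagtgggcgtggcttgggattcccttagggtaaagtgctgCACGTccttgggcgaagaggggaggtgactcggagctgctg

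In complex I, the NADH dehydrogenase, 10 of 36 measured subunits (27.8%) were at least 1.5-fold lower in choline-deficient cells and 0 were higher, with a median of -0.38, beside 14.1% lower and 14.8% higher among all genes. This count depended on the scaling: 1 subunit, Ndufa9, was lower after quantile normalization and after cyclic loess, and 0 were after scaling to spike-in probes. In the N module, which binds NADH, Ndufs6, a zinc-binding subunit, had a relative signal of 25.9 in choline-deficient cells against 45.5 in choline-sufficient cells, a log2 difference of -0.81 ± 0.20. This was the largest difference in the complex. Its probe lies at chr13:73457324-73457383 on mm9, the build of the array's annotation. Ndufa2, an accessory subunit of the same module, had 17.5 in choline-deficient cells against 27.4 in choline-sufficient cells, a difference of -0.64. The N module as a whole had 2 of 10 genes lower, beside 14.1% of all genes, and a median of -0.46.

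In the Q module, which carries electrons to ubiquinone, 1 of 5 genes was lower, beside 14.1% of all genes, and the median was -0.12. That gene was Ndufs7, which holds the last iron-sulfur cluster before ubiquinone. It had 18.1 in choline-deficient cells against 30.0 in choline-sufficient cells, a difference of -0.73. The other Q module genes lay between -0.35 (Ndufa5) and 0.08 (Ndufs8). Ndufa9, an accessory subunit near the junction of the arms, was counted here outside the modules. It had 5.45 in choline-deficient cells against 9.36 in choline-sufficient cells, a difference of -0.78.

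The membrane arm, which pumps protons, had 6 of 19 genes lower and a median of -0.45, beside 14.1% lower among all genes. None of the 6 was 1.5-fold lower after quantile normalization, cyclic loess or scaling to spike-in probes. Ndufs5 had 25.2 in choline-deficient cells against 41.7 in choline-sufficient cells, a difference of -0.73. Ndufb6 had 11.5 in choline-deficient cells against 18.3 in choline-sufficient cells (-0.67). Ndufa1, an X-linked subunit needed for assembly of the arm, had 19.6 in choline-deficient cells against 30.8 in choline-sufficient cells (-0.65). The other lower genes of the arm were close to the 1.5-fold size: Ndufb9 at -0.61, Ndufb2 at -0.60 and Ndufb7 at -0.60. At the other end Ndufc1 and Ndufa8 were nearly level, at -0.01 and 0.04. Ndufb4 stood at -0.12, and Ndufa12, of the N module, at -0.56.

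Within complex I the conserved core subunits and the accessory subunits differed in their medians. The 7 nuclear core subunits, most of which carry the flavin or iron-sulfur clusters, had a median of -0.10, with 1 of 7 lower. The 29 accessory subunits had a median of -0.47, with 9 of 29 lower, beside 14.1% lower among all genes and an all-gene median of -0.10. The core median turned positive after quantile normalization (0.099), cyclic loess (0.12) and scaling to spike-in probes (0.17). In those settings 1, 1 and 0 of the 29 accessory subunits were lower, beside 14.1%, 10.7% and 5.97% of all genes. Of the core, Ndufv1, which binds NADH, had 32.1 in choline-deficient cells against 34.3 in choline-sufficient cells (-0.10). Ndufs1 stood at -0.37 and Ndufs3 at -0.12. Ndufs8 and Ndufv2 lay slightly above 0, at 0.08 and 0.11. The core median lay above the accessory median under all 10 processing settings run, by 0.31 to 0.39. Of these, scaling to the median or to spike-in probes and the deposited table add a constant to every difference. They could not change the gap and are not separate checks of it. The groups overlapped widely gene by gene, and with 1 array per condition the gap has no replicate check.

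Complex II, succinate dehydrogenase, also belongs to the citric acid cycle. Its 4 genes had a median of -0.41, with 1 lower (25%), beside 14.1% of all genes. Sdhd, a membrane anchor subunit that binds haem, had a relative signal of 10.8 in choline-deficient cells against 22.7 in choline-sufficient cells, a log2 difference of -1.08 ± 0.20, or 2.11-fold lower. Its probe lies at chr9:50404630-50404689 on mm9. The other anchor, Sdhc, stood at -0.26. Of the catalytic pair, the flavoprotein Sdha had 16.8 in choline-deficient cells against 25.0 in choline-sufficient cells (-0.57), just inside 1.5-fold. The iron-sulfur protein Sdhb had 13.3 in choline-deficient cells against 12.3 in choline-sufficient cells (0.12). The 4 subunits of this complex thus spread over more than 1 log2 unit.

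Complex III, the cytochrome bc1 complex, had 2 of 9 genes lower (22.2%), beside 14.1% of all genes, and a median of -0.36. Uqcrq, a small subunit that lies against cytochrome b, had 17.3 in choline-deficient cells against 36.5 in choline-sufficient cells, a difference of -1.08 ± 0.20. Its 2 probes, at chr11:53242551-53242610 and chr11:53242451-53242510 on mm9, gave -1.16 and -0.99. The small subunit Uqcr10 had 12.3 in choline-deficient cells against 19.8 in choline-sufficient cells (-0.69). The electron-carrying subunits were lower by less than 1.5-fold, with cytochrome c1 (Cyc1) at -0.54 and the Rieske iron-sulfur protein (Uqcrfs1) at -0.52. The core proteins Uqcrc1 and Uqcrc2, which face the matrix, stood at -0.09 and -0.30. The probe of Uqcrc2 is printed 10 times on each array, and its spots gave differences from -0.34 to -0.25 with an SD of 0.03. The smallest difference was that of Uqcr11, at 0.05.

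Complex IV, cytochrome c oxidase, had both extremes of the whole set. Of its 15 measured nuclear genes, 3 (20%) were lower and 1 (6.67%) was higher, beside 14.1% and 14.8% of all genes. The median was -0.40. Cox6a2, the form of subunit 6a known from heart and skeletal muscle, had a relative signal of 0.443 in choline-deficient cells against 3.58 in choline-sufficient cells. This was a log2 difference of -3.01 ± 0.20, or 8.08-fold lower, at rank 33 from the lowest of 19818 genes. Its single probe lies at chr7:135349160-135349219 on mm9. Cox6a1, the broadly expressed form of the same subunit, had 113 in choline-deficient cells against 138 in choline-sufficient cells, a difference of -0.29. Cox7a1, the muscle form of subunit 7a, had 0.816 in choline-deficient cells against 0.332 in choline-sufficient cells, a difference of 1.30 ± 0.20, or 2.46-fold higher. Its broadly expressed counterpart Cox7a2 had 22.4 in choline-deficient cells against 32.8 in choline-sufficient cells (-0.55). The pair of muscle forms therefore lay on opposite sides, each apart from its broad counterpart.

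The 10 broadly expressed subunits of complex IV had a median of -0.43 and 2 of 10 lower, beside 14.1% of all genes. All 10 lay below 0 with scaling to the 75th percentile, but Cox6a1 stood at 0.07 and Cox6c at 0.04 after cyclic loess, and Cox7c at 0.13 after scaling to spike-in probes. Cox6b1, which faces the intermembrane space, had 2.17 in choline-deficient cells against 3.92 in choline-sufficient cells (-0.85). Cox5a had 47.4 in choline-deficient cells against 72.1 in choline-sufficient cells, a difference of -0.60, at the edge of the 1.5-fold size. Cox4i1, Cox7b and Cox8a stood at -0.44, -0.48 and -0.42, and Cox7c, with the smallest difference of the broad forms, at -0.14. Of the tissue forms, Cox4i2, known from lung and from low oxygen, stood at -0.29, and Cox6b2, known from testis, at -0.37. Both were dim, Cox4i2 at 0.0609 in choline-deficient cells against 0.0743 in choline-sufficient cells, and Cox6b2 at 0.0504 in choline-deficient cells against 0.0649 in choline-sufficient cells. Cox7b2, Cox8b and Cox8c, forms known from testis or muscle, were well above background on neither array. Cox7a2l, a factor that joins complexes into supercomplexes, had 21.2 in choline-deficient cells against 22.4 in choline-sufficient cells (-0.08), the smallest difference in the complex.

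**Figure D2:**
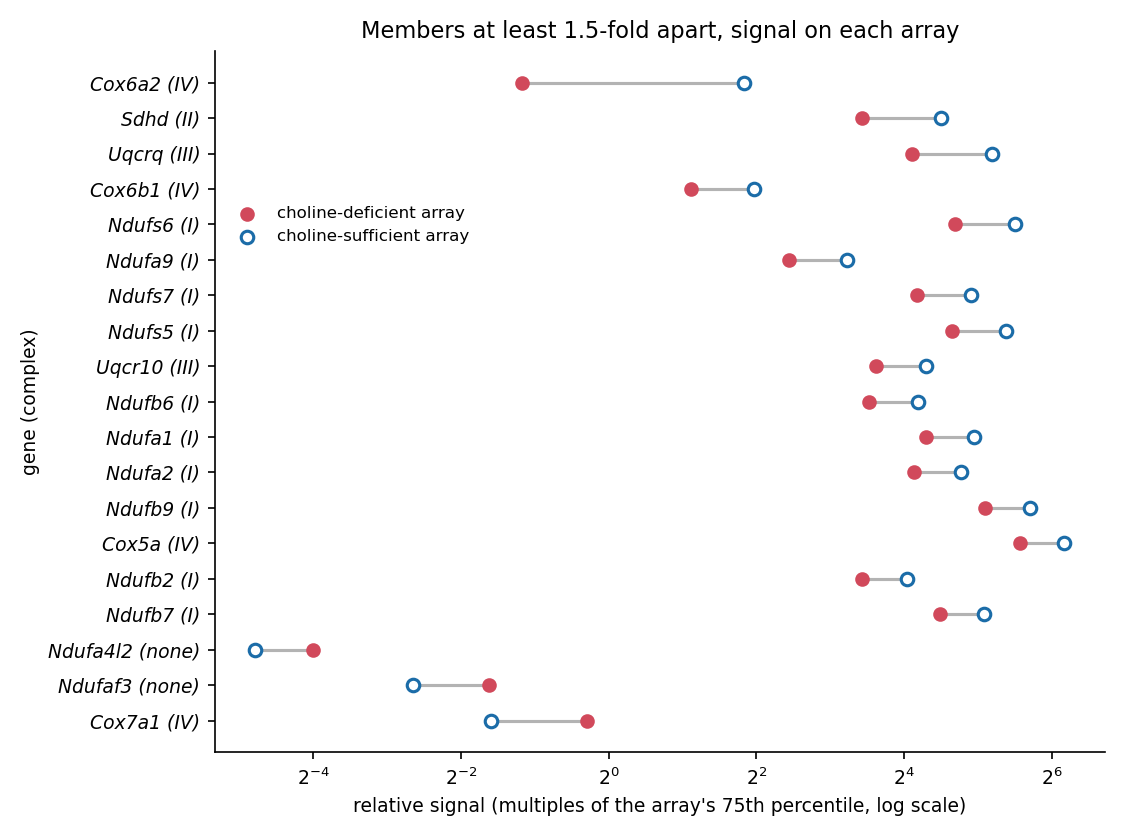
Relative signal on each array (horizontal axis, log scale, in multiples of the array's 75th percentile) of the 19 members at least 1.5-fold apart, ordered by difference, with the complex in brackets. Filled red points are the choline-deficient array and open blue points the choline-sufficient array. Cox6a2 has the widest gap (0.443 and 3.58), and Cox7a1, Ndufaf3 and Ndufa4l2 are the genes with the filled point on the right.

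Complex V, the ATP synthase, had small differences when probes were averaged per gene. Of its 17 genes 0 were 1.5-fold apart, beside 14.1% lower and 14.8% higher among all genes, and the median was -0.28. All 17 lay below 0 with scaling to the 75th percentile, but 13 did after quantile normalization and 11 after cyclic loess. Scaling to spike-in probes, which adds 0.27 to every difference, also left 11. Atp5b, for example, stood at 0.06 after cyclic loess. The differences ran from -0.58 for Atp5g1 to -0.12 for Atp5j2. The catalytic F1 head is built around Atp5a1 and Atp5b. Atp5a1 had 21.5 in choline-deficient cells against 30.5 in choline-sufficient cells (-0.51). Atp5b had 71.6 in choline-deficient cells against 86.8 in choline-sufficient cells (-0.28). The F1 subunits Atp5c1, Atp5d and Atp5e stood at -0.36, -0.26 and -0.28. Of the genes for the rotating c ring, which encode the same mature protein, Atp5g2 stood at -0.27 and Atp5g3 at -0.32. For Atp5g1 the 2 probes gave -1.02 and -0.14, so that its mean just inside 1.5-fold hides probes that disagree in size. For Atp5l, a membrane subunit, the 5 probes ran from -0.67 to -0.49. By the brightest probe alone, Atp5g1 and Atp5l were 1.5-fold lower, beside 14.5% of all genes. The peripheral stalk genes had a median of -0.23 and the membrane subunits one of -0.33. Just inside the 1.5-fold size in the whole set lay Atp5g1 (-0.58), Sdha (-0.57) and Atp5l (-0.57), and just outside it Ndufb7 (-0.60), Ndufb2 (-0.60) and Cox5a (-0.60).

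The 11 remaining names had 0 genes lower and 2 higher (18.2%), beside 14.1% and 14.8% of all genes. These names comprise 8 assembly factors of complex I, the pair Ndufa4 and Ndufa4l2, and Ndufa11b, a noncoding copy. Ndufaf3, which acts early in complex I assembly, had 0.326 in choline-deficient cells against 0.159 in choline-sufficient cells, a difference of 1.03 ± 0.20, or 2.05-fold higher. Its probe lies at chr9:108468692-108468899 on mm9. The other assembly factors ranged from -0.37 (Ndufaf6) to 0.36 (Ndufaf7), and the median of the 8 was -0.27. Ndufa4, now counted by many as a subunit of complex IV, had 13.8 in choline-deficient cells against 14.8 in choline-sufficient cells (-0.10). Ndufa4l2, known as a target of the hypoxia-inducible factor, stood at 0.78 ± 0.21, from signals of 0.0623 in choline-deficient cells and 0.0363 in choline-sufficient cells. After normexp background correction it was no longer 1.5-fold apart. Ndufa11b stood at -0.28.

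Where a gene had more than 1 measured probe, the probes mostly shared a sign. They had opposite signs for 4 of 31 members (12.9%), beside 24.8% of 5150 genes with more than 1 probe. For Ndufab1, the acyl carrier protein of mitochondria, the probe at chr7:129234361-129234420 gave -0.54 and the probe at chr7:129231667-129231726 gave 1.01. The probes are annotated to different transcript variants, and the gene's mean of 0.24 describes neither. For Ndufv3 the probes gave -0.40, 0.89 and 0.35, and its mean of 0.28 was the highest of complex I. For Ndufa3 they gave -1.41, 0.28 and 0.22, the first from a dim probe at 0.0692 in choline-deficient cells and 0.184 in choline-sufficient cells. For Ndufaf5 they gave 0.06, -0.48 and -0.53, all from dim probes.

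The subunits encoded in mitochondrial DNA were slightly below 0 with scaling to the 75th percentile. The 9 named on the arrays (ND1 to ND6 with ND4L, CYTB and ATP8) had a median of -0.33. Of these 9, 0 were at least 1.5-fold apart, beside 14.1% lower and 14.8% higher among all genes. ND6, the only one on the light strand, had 1.48 in choline-deficient cells against 2.07 in choline-sufficient cells (-0.48), the largest difference. ND3 had the smallest, at -0.18. Scaling to spike-in probes adds 0.27 to every difference, which turns the sign of the smaller ones. CYTB, the haem protein of complex III, had 89.1 in choline-deficient cells against 112 in choline-sufficient cells (-0.33).

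Among factors that build or connect the complexes, 40 further assembly factors were measured, of which 7 were lower and 1 was higher, with a median of -0.24. The 17.5% lower was close to the 14.1% of all genes, and the 2.5% higher stood beside 14.8%. Sco1, a copper carrier for complex IV, had 0.169 in choline-deficient cells against 0.322 in choline-sufficient cells (-0.93). The others lower were Lyrm7 of complex III assembly (-0.68), Cox10 of haem A synthesis (-0.64), and Atpaf1 and Atpaf2 of ATP synthase assembly (-0.62 and -0.61). Ecsit, of complex I assembly, and Cox14, of complex IV assembly, both stood at -0.59. Lyrm7, Cox10 and Atpaf1 came from dim probes, with Atpaf1 at 0.0119 in choline-deficient cells against 0.0184 in choline-sufficient cells. Scaling to spike-in probes adds 0.27 to every difference, which brings all 7 except Sco1 within 1.5-fold. Sdhaf4, which helps to mature Sdha, had 2.44 in choline-deficient cells against 1.35 in choline-sufficient cells (0.85). Of 18 genes for cytochrome c, ubiquinone synthesis and other enzymes that feed electrons to ubiquinone (Etfa, Etfb, Etfdh and Dhodh), 4 were lower and 0 higher, beside 14.1% and 14.8% of all genes. Cytochrome c (Cycs) had 1.33 in choline-deficient cells against 2.23 in choline-sufficient cells (-0.75). The ubiquinone genes Coq4, Coq8a and Coq10a stood at -0.65, -0.65 and -0.60. Coq8a came from dim probes, at 0.0208 in choline-deficient cells against 0.0327 in choline-sufficient cells. The spike-in shift brings these 4 within 1.5-fold as well. Higd2a, a factor of supercomplex assembly, stood at -0.71, while Higd1a stood at 0.53, Lonp1 at -0.33 and the ATP synthase inhibitor Atpif1 at 0.16.

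The 12 transcriptional regulators of mitochondrial genes had a median of 0.13, with 0 lower, beside 14.1% of all genes, and 2 higher. The 16.7% higher was close to the 14.8% of all genes. The coactivator Ppargc1a had 0.034 in choline-deficient cells against 0.0178 in choline-sufficient cells (0.94), and Ppargc1b stood at 0.72. Both came from dim probes. The factors whose letters were searched in the promoters lay within 1.5-fold, with Nrf1 at -0.26, Gabpa at -0.24 and Yy1 at 0.38.

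Signal strength moved with the difference. Of the 92 members, 62 (67.4%) belonged to the brightest 10% of genes. Over all genes in 10 bins of signal, the median difference was between -0.09 and 0.02 in the 7 dimmer bins and -0.30 in the brightest. The members in that bin had a median of -0.39, with 13 of 62 lower and 0 higher. The 1920 other genes of the bin had a median of -0.30, and the whole bin had 15.2% lower and 3.94% higher. Over the 92 members Spearman's correlation between signal and difference was -0.34, a description across genes of the same 2 arrays, which are not independent replicates. The 2399 other genes whose signal lay within the quartiles of the members' signal had a median of -0.25. The part of signal strength in the members' differences was not tested.

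**Figure D3:**
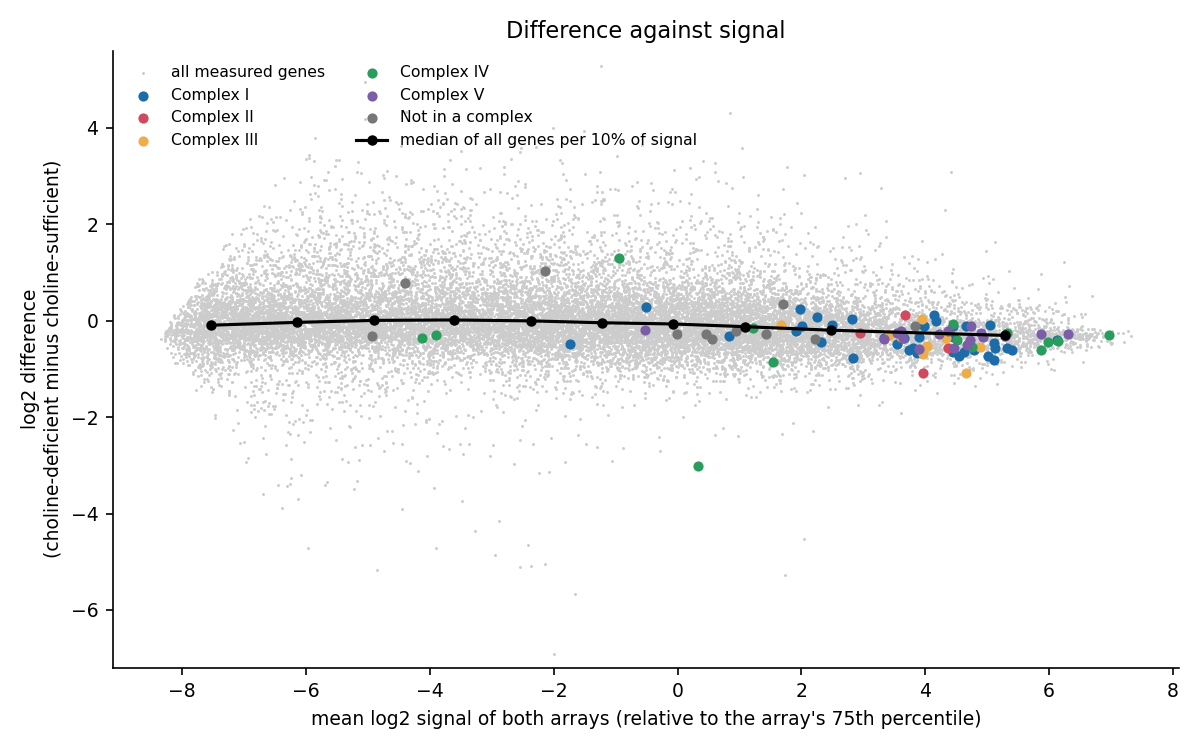
Log2 difference (choline-deficient minus choline-sufficient, vertical axis) against mean log2 signal of both arrays (horizontal axis), with all 19818 measured genes in grey and respiratory chain genes coloured by complex. The black line joins the medians of all genes in each of 10 bins of signal, which reach -0.30 in the brightest bin, where 62 of the 92 members lie.

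Cyclic loess, which removes a difference that follows signal strength, left 5 members lower, beside a background of 10.7%, and 3 higher, beside 16.5%. The 5 were Cox6a2 (-2.93), Sdhd (-0.84), Uqcrq (-0.81), Cox6b1 (-0.71) and Ndufa9 (-0.59). The median of the members was then -0.12, against -0.01 for all genes. Quantile normalization left the same 5 genes lower and the same 3 higher, beside 14.1% in each direction. Scaling to the median gave 30 lower, beside 20.3%, and 3 higher, beside 12%. Scaling to spike-in probes left 3 lower, Cox6a2, Sdhd and Uqcrq, beside 5.97%, and 4 higher, beside 24.2%. These 3 were lower, and Cox7a1 and Ndufaf3 higher, under all 10 settings run. Complex V had the median nearest to or above that of all genes in 10 of 10 settings. Complex II, with only 4 genes, or complex IV had the lowest in 10 of 10. Of these settings, scaling to the median or to spike-in probes and the deposited table add a constant to every difference. They could not change the order of the complexes and are not separate checks of it. Medians of the complexes relative to all genes ran from -0.21 to 0.02 for complex V and from -0.33 to -0.05 for the others.

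**Figure D4:**
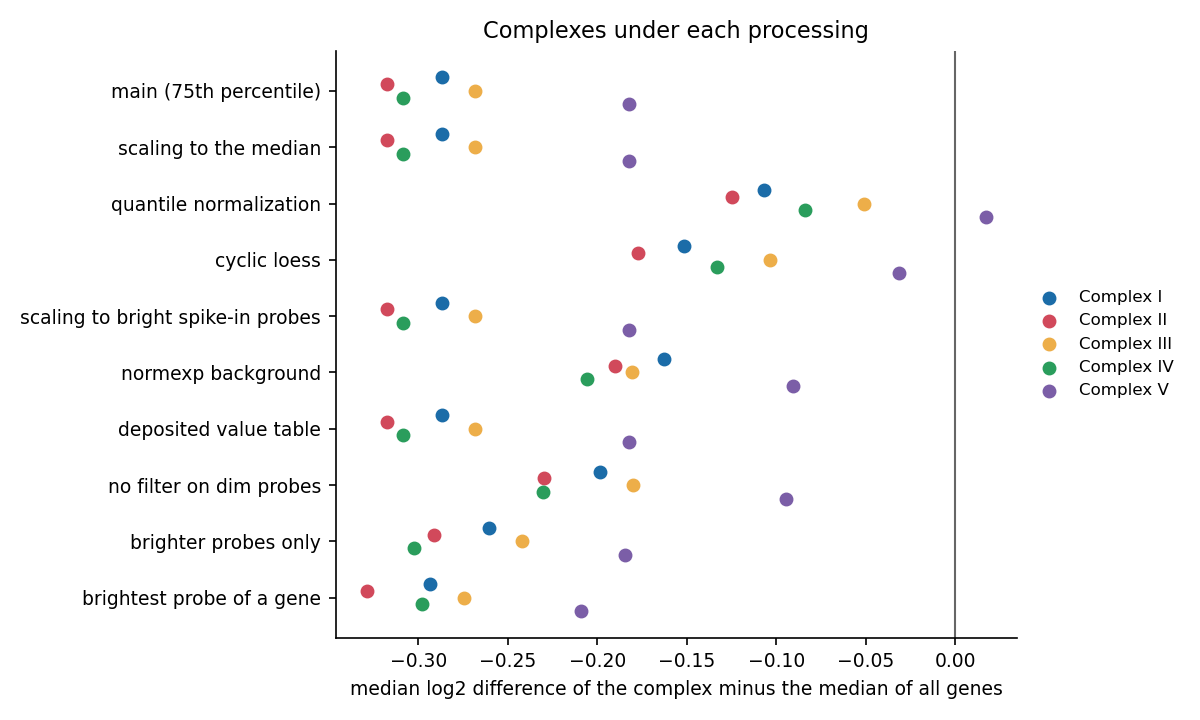
Median log2 difference of each complex minus the median of all genes (horizontal axis) under 10 processing settings (vertical axis), with 1 coloured point per complex. Complex V lies farthest to the right in every setting, and all complexes move towards 0 under quantile normalization and cyclic loess. Scaling to the median or to spike-in probes and the deposited table add a constant to every difference and so repeat the main positions.

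The members were set beside other large assemblies that cells express at a high level. Mitochondrial ribosome proteins had 23 of 78 genes lower and 1 higher, with a median of -0.41, beside 14.1% lower and 14.8% higher among all genes. Cytosolic ribosome proteins had 8 of 88 lower and 0 higher, with a median of -0.35. The median of the respiratory chain, -0.34, was close to both. The ATP synthase had 0 of 17 genes lower and a median of -0.28, against 14 of 19 and -0.95 for the lysosomal proton pump, a related rotary ATPase, beside 14.1% of all genes. This gap has no test. The pump subunit Atp6v1b2 had 0.201 in choline-deficient cells against 0.554 in choline-sufficient cells (-1.46). Relative to all genes the pump's median ran from -0.85 to -0.57 over the 10 settings.

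**Figure D5:**
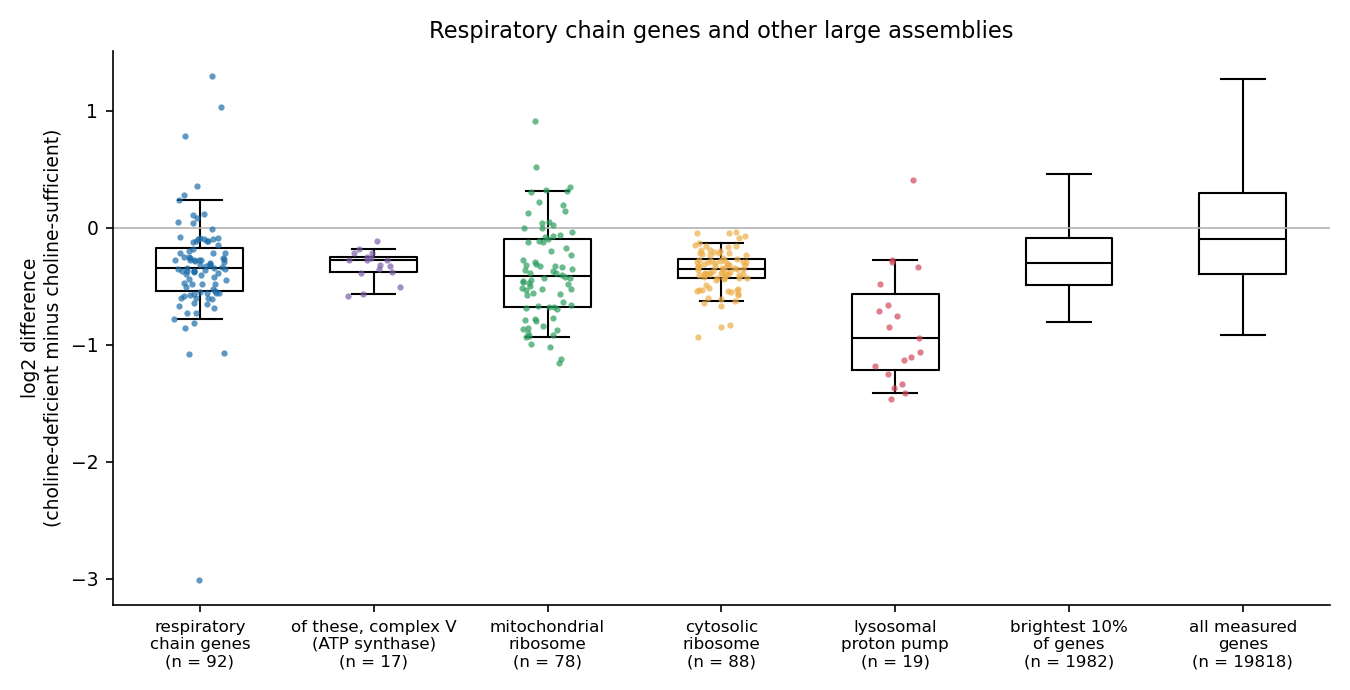
Log2 differences (choline-deficient minus choline-sufficient, vertical axis) of the respiratory chain genes, of complex V among them, of other assemblies, of the brightest 10% of genes and of all measured genes. Boxes span the quartiles with the median, whiskers the central 90% of genes, and points are single genes. The lysosomal proton pump (median -0.95) lies below the ATP synthase (-0.28), while both ribosomes (-0.41 and -0.35) lie near the respiratory chain (-0.34).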

How the data were processed

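Total RNA was amplified and labelled with Cy3, per the labels' protocols. Per the submitters' processing notes, the scanner software was Agilent Feature Extraction 12.1.1.1. The deposited scanner files give intensity per spot. The processed intensity was background-subtracted and detrended within each array, with no normalization between arrays, per the file headers. The deposited value table holds a linear ratio of that signal to a constant of each array (1609 and 1280 for the choline-deficient and choline-sufficient arrays), which equals the array's 75th percentile to within rounding. Genes were not centred in it, and its medians were 0.0358 and 0.0337.

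Here, processed signals were set to log2 and scaled to the 75th percentile of each array over all non-control spots. Outlier spots (92 and 86) were left out after this scaling. Spots of a probe were averaged. A probe was measured when well above background and not saturated on both arrays (26463 of 39426 probes). Measured probes were averaged per gene. Alternatives were median, quantile, cyclic loess and spike-in scaling (5 probes with signal over 1000), normexp with an offset of 50 in limma 3.58.1 (R 4.3.3), the deposited table, 2 other filters, the brightest probe and other fold sizes. Counts and medians were computed with pandas 2.3.3 and numpy 2.4.6 in Python 3.11.15, tested on simulated data.

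With 1 array per condition there was no test. The number of arrays limits the precision. The members and gene lists were chosen with earlier results of these data known. Named were all members at least 1.5-fold apart, the extremes and core subunits of each complex, isoform groups, genes with probes of opposite sign, and members of other lists at least 1.5-fold apart. Other named genes were chosen after their values were seen. Some genes that the rule names are not reported here. Kinase genes named Rps6k were left out of the ribosome list. Gene names are those of the files, and sequences are from RefSeq. Probe positions are on mm9, and exon or UTR annotation was not used here.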

Additional observations from a re-analysis of the deposited data

How the results depend on the processing

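No paired analysis was possible because each condition had 1 array, and none was left out. All 19 members at least 1.5-fold apart kept their sign under each setting that measured them. Only Cox6a2, Sdhd and Uqcrq stayed 1.5-fold lower, and Cox7a1 and Ndufaf3 1.5-fold higher, under every scaling, filter and probe rule.

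Against 16 members lower, scaling to the median gave 30, quantile normalization and cyclic loess 5 each, spike-in scaling 3, a 2-fold size 3 and a smaller log2 size of 0.32 gave 48 (beside 30.8% of all genes). In that order (median, quantile, loess, spike-in, 2-fold, smaller size), the shares of all genes lower were 20.3%, 14.1%, 10.7%, 5.97%, 3.88% and 30.8%, instead of 14.1%. In the same order, complex I had 16, 1, 1, 0, 0 and 22 lower instead of 10. Complex III had 4, 1, 1, 1, 1 and 6 instead of 2. Complex II had 2 instead of 1 after median scaling and at the smaller size. Complex IV had 5 after median scaling, 1 after spike-in scaling, 1 at 2-fold and 9 at the smaller size, instead of 3. Complex V had 3 after median scaling, 2 by the brightest probe (Atp5g1 and Atp5l) and 7 at the smaller size, instead of 0. With brighter probes only, 1 complex I gene (Ndufv3) was higher.

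The median of all members was -0.12 after loess and -0.071 after spike-in scaling. In the same order the medians were -0.16 and -0.11 for complex I, -0.19 and -0.14 for II, -0.11 and -0.094 for III, -0.14 and -0.13 for IV, and -0.041 and -0.0080 for V. After quantile normalization the medians were -0.16 for all members, -0.20 for complex I, -0.22 for II, -0.15 for III, -0.18 for IV and -0.078 for V. Relative to all genes, the complexes I to V then had -0.11, -0.13, -0.051, -0.084 and 0.017. The median of all genes shifted by -0.12 with median scaling (20.3% lower and 12% higher) and by 0.27 with spike-in scaling (5.97% and 24.2%). The causes of these changes were not tested. The scanner error of 0.20 limits each single difference but is nearly the same for all bright probes. It is not a spread measured for a gene, and the spread between cultures is unknown.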
